A study of Homo sapiens with 45 samples.

Results

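The nuclear genes of the mitochondrial respiratory chain and of ATP synthase were followed through the A375 arrays. Members were all genes whose annotated symbol begins with NDUFA, NDUFB, NDUFC, NDUFS, NDUFV, UQCR, COX4, COX5, COX6, COX7, COX8 or ATP5, together with SDHA, SDHC and SDHD. Of 90 genes found by symbol, 5 pseudogenes or non-coding RNAs were left out, which gave 85 members of 19775 genes named on the array. A further 5 genes (NDUFC2, NDUFS5, NDUFS8, UQCRH and UQCRHL) were named only by probe sets that also carried another gene, and SDHB was not analysed here. The members comprised 33 subunits of complex I, 8 NDUFAF genes, which help assemble complex I, 3 subunits of complex II, 6 of complex III, 17 of complex IV and 18 genes of ATP synthase, the regulator ATP5IF1 among them. The rule itself uses symbols and no measured value.

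The respiratory chain sits in the inner mitochondrial membrane. Complex I (NADH dehydrogenase) and complex II (succinate dehydrogenase) pass electrons to ubiquinone, complex III passes them on to cytochrome c, and complex IV (cytochrome c oxidase) hands them to oxygen. Complexes I, III and IV pump protons, and ATP synthase uses the resulting gradient to make ATP. All of these complexes except complex II combine nuclear subunits, as studied here, with subunits encoded in mitochondrial DNA.

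A375 is an established human melanoma line. The 45 Affymetrix U133 plus 2.0 arrays comprised 39 from cultures that received a siRNA pool against a single gene, 3 from cultures that received inactive control siRNA and 3 from untreated cultures, all of one cell line, with RNA taken 48 hours after transfection. The targets were mostly cell cycle regulators, kinases and transcription factors. Each targeting siRNA was used in 1 culture with 1 array, so a difference in a single array has no replicate check. By the study's list of targets, 9 of these arrays belong to batch KD1, 23 to KD2 and 7 to KD3. For arrays of control siRNA and of untreated cells no batch is stated. Each batch holds different siRNAs, so batch and siRNA set cannot be told apart. The labels give a siRNA concentration of 100 nM and the study's methods a lower one.

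Values are log2 intensities. The noise limit was 1.5 times the median signal of a spiked BioB control, or 8.59 in log2, and a probe set with a median over it was called above noise. Of the 37 targets with a gene name, 37 were at their lowest level of the batch in the array of their own siRNA. The study had selected siRNAs able to lower their target, so this outcome was largely set by that choice. The arrays numbered 3 of the untreated and the control siRNA group were near copies, since at least 95.4% of their probe sets lay within 10% of each other, while no other pair of arrays exceeded 62.0%. Of the melanocyte lineage markers 3 of 9 were above noise (MITF, SOX10 and S100B), and none of the 15 markers of leukocytes, fibroblasts, keratinocytes and endothelial cells was. The arrays measure bulk RNA, in which fewer cells of a kind and less RNA per cell cannot be told apart.

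The members were broadly expressed. Of the 85, 79 (92.9%) were above noise, compared with 24.3% of all named genes, and 76 were above the limit in every one of the 45 arrays. Among complex IV subunits with tissue isoforms, the widely expressed form was measured and the restricted form was not. COX4I1 lay between 13.06 and 13.51 in the 45 arrays, whereas COX4I2, a lung form, had a mean of 6.30 and was under the limit in every array. COX6A1 lay between 12.96 and 13.44, and its heart and muscle counterpart COX6A2 did not exceed 5.44. The muscle form COX7A1 (at most 5.45) and the testis forms COX6B2 (at most 5.75) and COX8C (at most 3.24) were under the limit in all arrays, while COX7A2, COX6B1 and COX8A were above it in all. The exception was COX7B2, a germ cell relative of COX7B, which was above noise with values from 7.92 to 9.71 and fell under the limit in some arrays. ATP5MF was under the limit in all arrays through its sole probe set with a single gene name. Probe sets differ in affinity, so levels of different genes are not compared here.

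Within batches the members varied little. Their median SD over the 39 siRNA arrays, within batches, was 0.0848 on the log2 scale, against 0.123 for the 4800 genes above noise and 0.103 for the 1037 genes whose level lay between the quartiles of the members' levels. ATP synthase genes had the smallest spread, with a median SD of 0.0684, and ATP5PB, which encodes a stalk subunit, the smallest of all at 0.0416. The medians were 0.0866 for complex I, 0.0926 for complex III and 0.0795 for complex IV. Complex II stood at the other end, with a median of 0.131 over 3 genes. SDHD, which encodes a membrane anchor of complex II, had the largest SD at 0.253, followed by COX7B2 at 0.182, NDUFA5 at 0.170 and NDUFA7 at 0.169. The value of SDHD rests on the AKT1 siRNA array, since without it the SD was 0.134, after COX7B2 (0.177), NDUFA5 (0.172), NDUFA7 (0.172) and NDUFAF6 (0.137), while the median of complex II was 0.133.

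**Figure D1:**
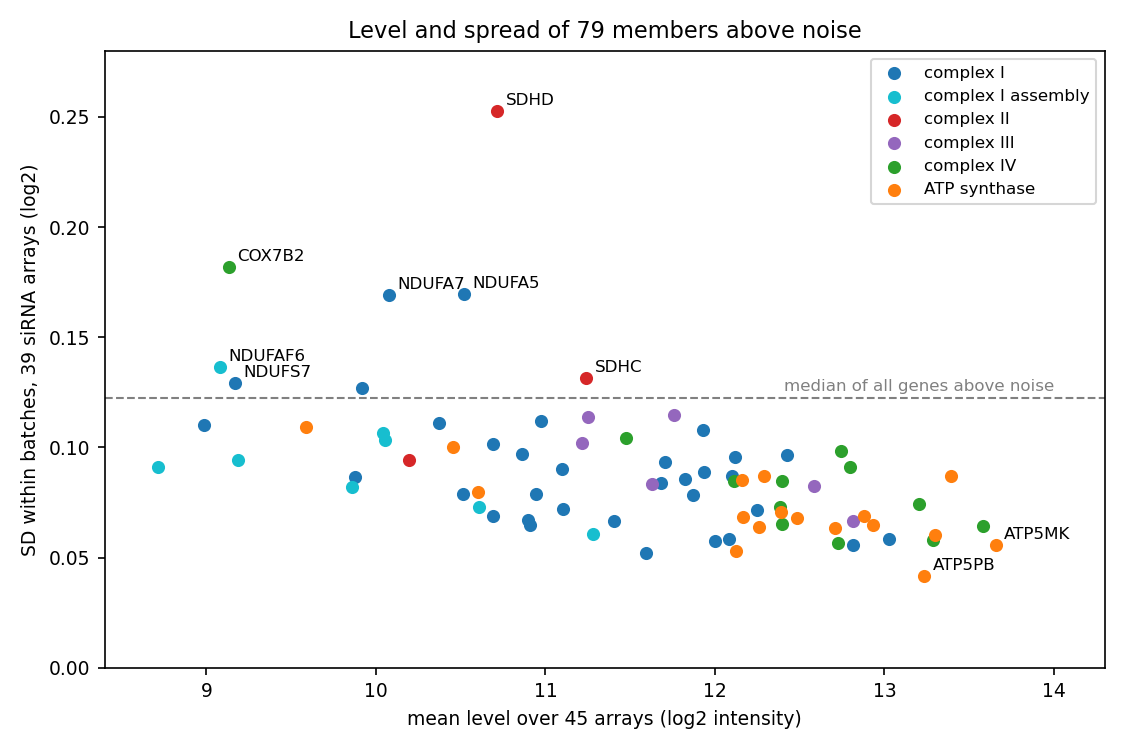
Each point is 1 of the 79 members above noise, coloured by complex, with its mean level over 45 arrays (log2 intensity) on the x axis and its SD within batches over 39 siRNA arrays (log2) on the y axis. The dashed line is the median SD of all genes above noise, 0.123, and SDHD at 0.253 stands highest, through the AKT1 siRNA array, without which its SD was 0.134.

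The first comparison asked which members moved when a single regulator was knocked down, as the difference between an array and the median of its batch. Of 3081 values (79 members in 39 arrays), 2 were at least 1.5-fold lower than the batch median and 0 were at least 1.5-fold higher. Over all genes above noise, 0.27% of values were at least 1.5-fold lower and 0.116% at least 1.5-fold higher. In all, 77 of 79 members (97.5%) stayed within 1.5-fold in every array, against 90.1% of genes. Of the members' values, 78.7% lay within 0.1 of the batch median on the log2 scale and 98.2% within 0.25, compared with 63.2% and 92.7% of the values of all genes above noise. These counts depended on the batch as reference, since 65 values passed 1.5-fold against the median of all 39 arrays and 53 when the mean control siRNA level was the reference. These were 2.11% and 1.72% of the members' values, against 5.64% and 6.17% of the values of all genes above noise.

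**Figure D2:**
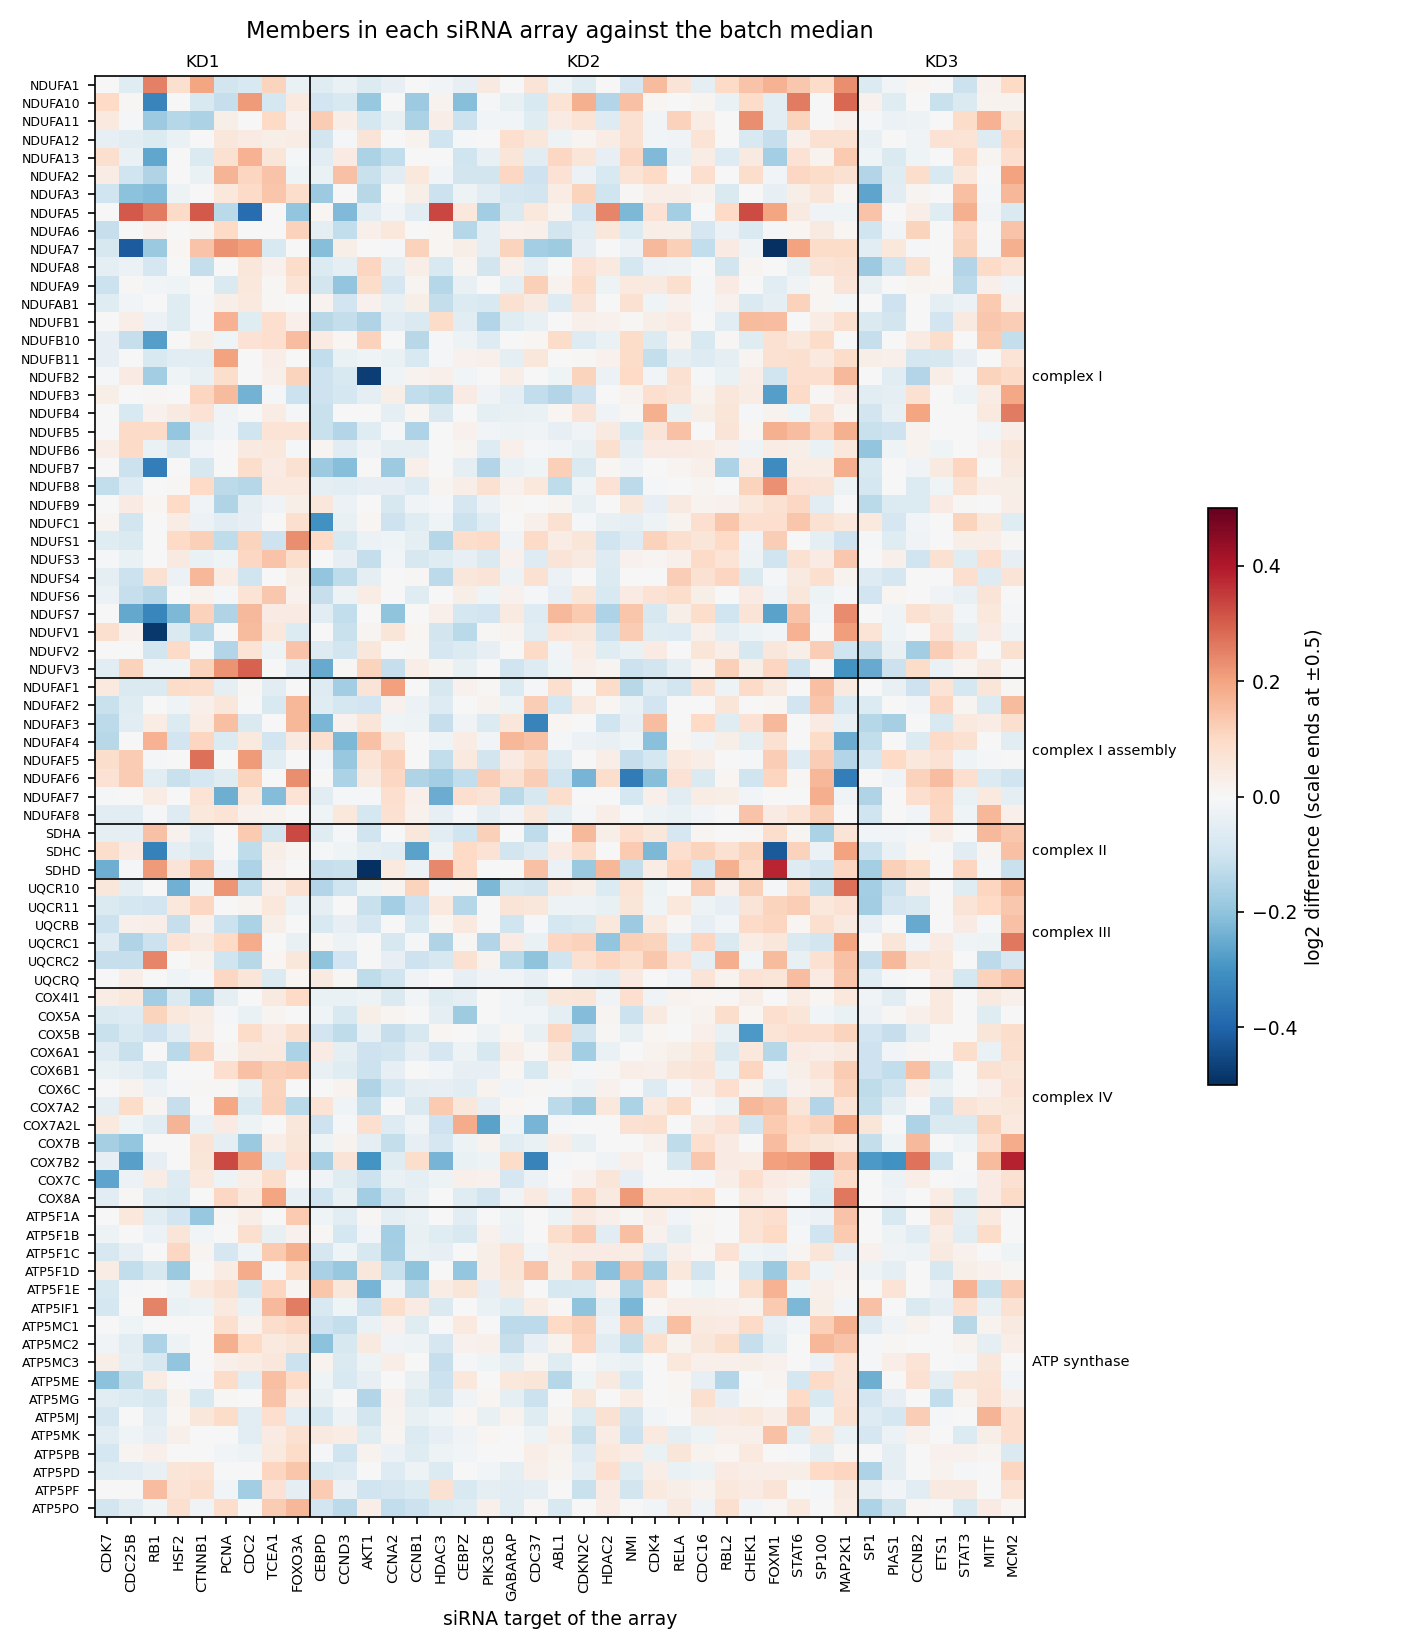
The colour gives the log2 difference of each of 79 members (rows, by complex) from its batch median in each of 39 siRNA arrays (columns, by batch and then by the median over members), and the scale ends at 0.5 in either direction. Most cells are pale, and the darkest are SDHD and NDUFB2 in the AKT1 siRNA array, NDUFA7 in the FOXM1 siRNA array and NDUFV1 in the RB1 siRNA array.

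The largest difference of any member was the low level of SDHD after siRNA against AKT1, a growth factor-activated kinase. SDHD was at 9.51 in this array, and the other 22 arrays of batch KD2 ran from 10.60 to 11.17 with a median of 10.81. The AKT1 siRNA array was the lowest of all 45 arrays, and no other array came near it. The control siRNA arrays lay between 10.50 and 10.72 and the untreated arrays between 10.60 and 10.88. The difference from the batch median was -1.28 on the log2 scale, or 2.43-fold lower, and with the other arrays of the batch varying with an SD of 0.138 it was well outside their spread. It rests on 1 probe set, because the other SDHD probe set was below noise, and with the median over both the difference was -0.78. The partner subunits of complex II did not share it, with SDHC at 11.27 against a batch median of 11.32, and SDHA at 10.15 against 10.24.

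NDUFB2, an accessory subunit of complex I, was also low after AKT1 siRNA. It stood at 11.56, under the range of 11.92 to 12.18 in the other 22 arrays of KD2, a difference of -0.47. A second NDUFB2 probe set above noise gave -0.39. Across the members, 49 were lower and 26 higher than the batch median in this array, with 46.7% of all genes above noise lower, and 10 of 12 complex IV subunits were lower with a median of -0.11. The AKT1 siRNA array held the lowest difference of 10 members, a number matched by the RB1 siRNA array alone. No such count was made over all genes above noise, so it is not read as particular to the members.

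The promoter of SDHD is shown because no other member changed as much in 1 array. The sequence covers the 250 bases before the RefSeq start (GRCh38.p14, chr11:112086623-112086872, plus strand). Capitals mark CCGGAAG, a core of ETS family sites, or its complement CTTCCGG.
SDHD promoter: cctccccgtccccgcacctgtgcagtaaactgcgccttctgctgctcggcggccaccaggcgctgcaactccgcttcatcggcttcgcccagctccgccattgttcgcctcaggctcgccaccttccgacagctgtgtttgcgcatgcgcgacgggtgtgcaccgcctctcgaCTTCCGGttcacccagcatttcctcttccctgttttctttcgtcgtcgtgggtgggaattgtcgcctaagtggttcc
Of the 79 members above noise, 70 had a promoter in the RefSeq table. CCGGAAG, on either strand, was in 16 of them (22.9%), against 11.8% of 15843 protein-coding promoters and 20.9% of those of genes above noise. A match describes the letters alone.

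After siRNA against FOXM1, a transcription factor of mitotic genes, members of complexes I and II lay on both sides of the batch median. In this array 27 of 79 members were lower and 49 higher, against 39.6% of all genes above noise lower. NDUFA7, an accessory subunit of complex I, was at 9.37, the lowest of 45 arrays, against 9.81 to 10.22 in the other arrays of KD2. The difference of -0.65, or 1.57-fold, was the other value past 1.5-fold, although over all NDUFA7 probe sets, the second of them below noise, it came to -0.30. NDUFA7 was low in the CDC25B siRNA array of KD1 as well, at 9.59 against 9.82 to 10.23, a difference of -0.42. SDHC, the other membrane anchor of complex II, was at 10.89 after FOXM1 siRNA, under the range of 11.05 to 11.52. Its 7 probe sets did not move together there, since their differences ran from -0.71 to 0.55, and the 4 above noise were all lower, the least by 0.04. SDHD was at 11.17, the highest of 45 arrays, a difference of 0.38. All 8 NDUFAF genes were higher than the batch median, with a median of 0.06, while 18 of 33 complex I subunits were lower. The 3′ less 5′ signal of ACTB, a measure of RNA integrity, was the highest of KD2 in this array, at 2.08 against a batch median of 1.51, and its part in these differences was not tested.

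After siRNA against RB1, the retinoblastoma protein, 20 of 33 complex I subunits were lower than the batch median and 9 higher, with a median of -0.03. NDUFV1, which carries the flavin that accepts electrons from NADH, was at 10.39, the lowest of 45 arrays, and the other 8 arrays of KD1 lay between 10.73 and 11.03. NDUFB7 was at 10.14, under the range of 10.38 to 10.58. Their differences from the batch median were -0.48 and -0.35, and those of NDUFA10, NDUFS7 and NDUFB10 were -0.33, -0.33 and -0.28. SDHC of complex II, at -0.34, was among the lowest as well. NDUFA5 and NDUFA1, of the same complex, were higher by 0.26 and 0.25. The array held the lowest difference from the batch median of 10 members and the highest of 5, a count not made over all genes. Its median over members was only -0.02, with 44 lower and 24 higher against 44.8% of all genes above noise lower. The 3′ less 5′ signal of ACTB was the highest of KD1 here, at 1.76 against a batch median of 1.28, and its part was not tested.

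The remaining large differences were smaller than 1.5-fold. NDUFA5 was at 9.76 after siRNA against CDC2, the mitotic kinase, under the range of 9.95 to 10.46 in the other arrays of KD1. COX7B2 was at 8.61 after siRNA against MCM2, a subunit of the replicative helicase, above the range of 7.92 to 8.49 in the other arrays of KD3, a range that lies wholly under the noise limit, and against all 39 arrays (-0.72) or control siRNA (-0.38) the difference had the opposite sign. Both of those references keep the batch differences in the values. NDUFAF6 was at 8.76 in both the NMI and the MAP2K1 siRNA arrays, with the other arrays of KD2 reaching 9.27, so neither array was alone in being low.

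**Figure D3:**
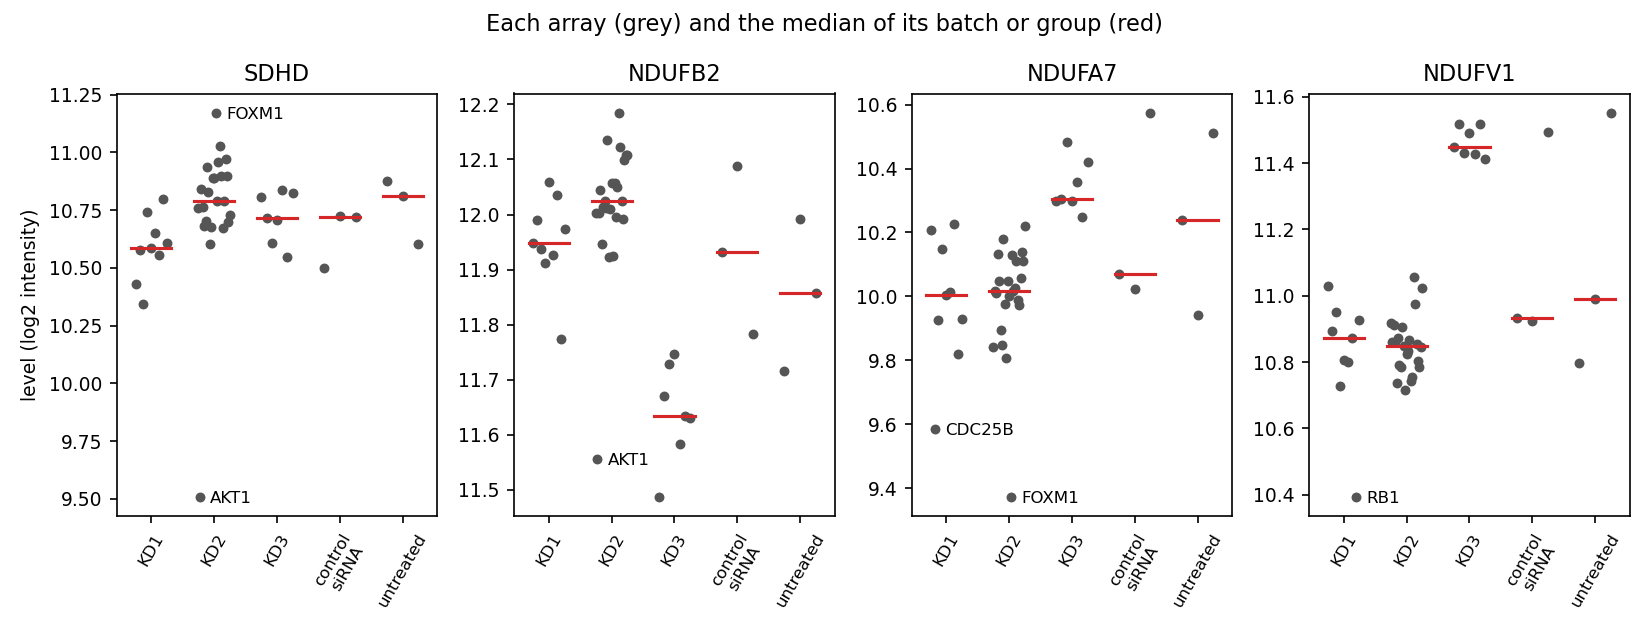
Each grey point is the log2 level of the named member in 1 array, by batch or group, and the red line is the median of that batch or group. SDHD in the AKT1 siRNA array (9.51), NDUFA7 in the FOXM1 siRNA array (9.37) and NDUFV1 in the RB1 siRNA array (10.39) lie under all other arrays, while NDUFB2 in the AKT1 siRNA array (11.56) lies under the rest of its batch.

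Over all members, the arrays differed by little. The median difference of the 79 members ran from -0.07 in the SP1 siRNA array to 0.06 in the MAP2K1 siRNA array, with an SD of 0.0300 over the 39 arrays. SP1 is a transcription factor that binds GC boxes. In its array 59 members were lower than the batch median, 10 higher and 10 equal to it, while 42.8% of all genes above noise were lower. All complexes took part, with 24 of 33 complex I subunits, 6 of 8 NDUFAF genes, 3 of 3 complex II subunits, 5 of 6 complex III subunits, 10 of 12 complex IV subunits and 11 of 17 ATP synthase genes lower. The lowest were COX7B2 at -0.29, NDUFA3 at -0.27, NDUFV3 at -0.25 and ATP5ME at -0.24, and none passed 1.5-fold. COX7B2 was under the noise limit in this array, as was its batch median, so its difference is not exact. Among the mitochondrial ribosomal protein genes 49 of 72 were lower. The median of the members remained negative under every alternative that kept the batch as reference, between -0.06 and -0.08. It was -0.10 against all 39 arrays and -0.13 against control siRNA, references that are the same for every batch. That sign cannot be told apart from the batch. All other KD3 arrays had negative medians against control siRNA too, from -0.09 (PIAS1) to -0.02 (MITF). Members were mostly lower in the arrays of CEBPD siRNA (58 of 79, median -0.06, against 52.0% of all genes) and of CDK7 siRNA (53 of 79, median -0.04, against 44.5%) as well, whereas the 61 lower in the CCND3 siRNA array stood beside 62.3% of all genes.

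Since GGGCGG, on either strand, is the core of the SP1 binding site, the promoters of the members were searched for it. It was found in 37 of 70 members (52.9%), against 56.0% of all promoters and 68.4% of those of genes above noise. In the SP1 siRNA array the 37 members with the box had a median difference of -0.06 (24 lower) and the 33 without it a median of -0.09 (28 lower). With the box at least 2 times, 9 of 11 members were lower (median -0.08). Of all genes above noise, 42.0% of those with the box and 43.8% of those without it were lower. The promoters of NDUFV3 and NDUFA8, the lowest members in this array among those with the box, follow as 250 bases before the RefSeq start (GRCh38.p14), with GGGCGG or its complement CCGCCC in capitals. NDUFV3 (chr21:42893059-42893308, plus strand) was at -0.25 and NDUFA8 (chr9:122159780-122160029, minus strand) at -0.18.
NDUFV3 promoter: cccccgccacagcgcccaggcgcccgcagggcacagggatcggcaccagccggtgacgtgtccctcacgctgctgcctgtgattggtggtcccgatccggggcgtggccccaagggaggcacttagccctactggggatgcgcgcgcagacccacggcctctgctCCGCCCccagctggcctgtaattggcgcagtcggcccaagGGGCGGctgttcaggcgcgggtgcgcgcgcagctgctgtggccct
NDUFA8 promoter: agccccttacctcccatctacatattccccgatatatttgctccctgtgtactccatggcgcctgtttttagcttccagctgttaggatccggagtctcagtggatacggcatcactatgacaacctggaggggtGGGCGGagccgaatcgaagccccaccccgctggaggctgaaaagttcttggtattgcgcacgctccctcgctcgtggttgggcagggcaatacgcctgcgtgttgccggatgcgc
The NDUFV3 stretch holds the box 2 times and the NDUFA8 stretch 1 time.

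The opposite extreme was the array of MAP2K1 siRNA, directed at the kinase MEK1. There 59 members were higher than the batch median and 19 lower, while 40.4% of all genes above noise were higher. All 6 complex III subunits (median 0.14), 11 of 12 complex IV subunits (0.10), 14 of 17 ATP synthase genes (0.07) and 24 of 33 complex I subunits (0.05) were higher. Of the NDUFAF genes 6 of 8 were lower (median -0.06), and of the mitochondrial ribosomal protein genes 46 of 72 (-0.05), beside 57.0% of all genes above noise lower. NDUFA10 at 0.29, UQCR10 at 0.28 and COX8A at 0.26 were the highest, and NDUFAF6 at -0.34, NDUFV3 at -0.30 and NDUFAF4 at -0.25 the lowest. The array held the highest difference from the batch median of 16 members, followed by the FOXO3A siRNA array with 13 and the MCM2 siRNA array with 11. The same count was not made over all genes, so it is not read as particular to the members. The median was positive against every other reference and scaling, between 0.04 and 0.08. For MCM2 siRNA, with a median of 0.06 and 59 members higher against 38.7% of all genes, it turned to -0.02 against the control siRNA arrays. In the MITF siRNA array, in which the melanocyte lineage factor was knocked down, 52 members were higher (37.4% of all genes), with a median of 0.03 that turned to -0.01 against all 39 arrays and -0.02 against control siRNA. The MCM2 and MITF siRNA arrays belong to KD3, and these references keep the batch differences in the values. In all, the share of members exceeded that of all genes above noise by 25 percentage points or more in 3 arrays for lower values and 6 for higher ones. The others for lower values were those of PIAS1 siRNA (55 of 79 members, 36.4% of all genes) and CCNA2 siRNA (55 of 79, 42.5%), with medians of -0.02 and -0.03. The others for higher values were those of TCEA1 siRNA (53 of 79, 25.4%), STAT6 siRNA (58 of 79, 44.4%) and CHEK1 siRNA (54 of 79, 40.7%), each with a median of 0.03, which for TCEA1 was -0.0012 with centred arrays.

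**Figure D4:**
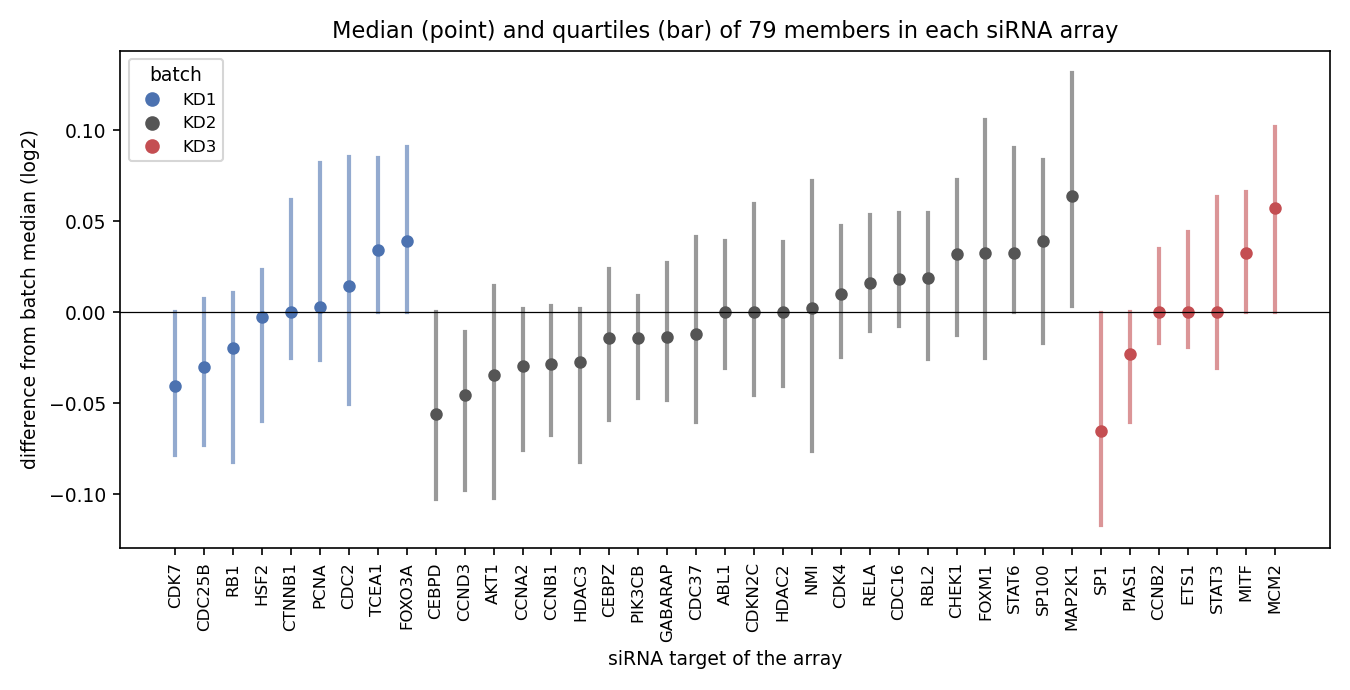
Points are the median difference of 79 members from the batch median (log2) in each siRNA array and bars run from the first to the third quartile, with arrays grouped by batch. The medians span -0.07 for SP1 siRNA to 0.06 for MAP2K1 siRNA, and the bars of nearly all arrays reach 0.

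More members differed by 1.5-fold between batches than in any siRNA array. Batches were compared with limma over all 54675 probe sets, with adjusted p-values by the Benjamini-Hochberg method and calls at an adjusted p under 0.05. Of 79 members, 57 were called in KD3 against KD2, 25 higher and 32 lower, against 72.9% of all genes above noise called. In KD1 against KD2, 47 were called, 20 higher and 27 lower, against 67.1% of all genes called, 33.2% higher and 33.8% lower. Under other scalings this split moved to 26 higher of 45 (each array centred on its own median) or 14 higher of 45 (quantile normalisation). In KD3 against KD1, 59 were called, 23 higher and 36 lower, against 76.7% of all genes called, 34.7% higher and 42.0% lower. The members' shares, 72.2%, 59.5% and 74.7%, were close to or under those of all genes, and their sizes were smaller, with a median absolute difference of 0.23, 0.10 and 0.25 against 0.28, 0.20 and 0.36. The ranges of the arrays did not overlap for 33 members in KD3 against KD2, 9 in KD1 against KD2 and 39 in KD3 against KD1, beside 35.3%, 15.6% and 52.1% of all genes. Differences of at least 1.5-fold were found for 6, 2 and 11 members (7.59%, 2.53% and 13.9%), beside 19.7%, 8.27% and 30.3% of all genes. ATP5F1E, ATP5PB, COX5B, NDUFA1, NDUFA12, NDUFB7, NDUFS6 and SDHD were called in none of the comparisons, and 26 members in all 3, beside 7.38% and 38.5% of all genes above noise. Without the AKT1 siRNA array 6 members were called in none, since SDHD and NDUFA12 were then called in KD1 against KD2. The 3′ less 5′ signal of ACTB moved with the batches, at 0.51 to 0.66 in KD3, 1.01 to 1.76 in KD1 and 1.09 to 2.08 in KD2, and its part in these differences was not tested.

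Subunits of the same complex moved in opposite directions, as did genes above noise at large. In complex IV, COX7B2 had a lowest, median and highest value of 7.92, 8.22 and 8.61 in KD3, 8.997, 9.33 and 9.63 in KD2, and 9.10, 9.38 and 9.71 in KD1. All arrays of KD3 were thus under all others. The difference was -1.09 ± 0.08 (SE) to KD2 and -1.16 ± 0.09 to KD1 (limma adjusted p = 2.05e-16 and 3.11e-15). These sizes are not exact, because COX7B2 was under the noise limit in 6 of 7 arrays of KD3 and passed the filter through the other batches. With the limit as floor in KD3, it was at least 1.67-fold lower than in KD2 and at least 1.76-fold lower than in KD1. COX6B1, a subunit at the outer face of the complex, was at 11.70, 11.82 and 11.97 in KD3 and at 12.42, 12.52 and 12.65 in KD2, lower by a difference of -0.70 ± 0.04 (adjusted p = 1.37e-19). COX7A2L, which joins complex III to complex IV in supercomplexes, was at 11.95, 12.10 and 12.22 in KD3 and at 11.11, 11.38 and 11.58 in KD2. It was higher by 0.71 ± 0.05 against KD2 (adjusted p = 1.64e-16) and by 0.87 ± 0.06 against KD1 (adjusted p = 2.65e-17). COX8A was higher in KD3 too, by 0.34 against KD2 and 0.50 against KD1. Of the 12 complex IV subunits above noise, 4 were higher and 4 lower in KD3 against KD2. Of all genes above noise, 31.8% were called higher and 41.2% lower there.

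Complex I was split in the same way, with 11 of 33 subunits higher and 12 lower in KD3 against KD2, and 11 higher and 16 lower against KD1. Of all genes above noise, 31.8% were called higher and 41.2% lower against KD2, and 34.7% and 42.0% against KD1. The split of complex I was thus near that of genes at large. NDUFS7, which carries the last iron-sulphur cluster of the electron path, was at 9.72, 9.74 and 9.81 in KD3, above all arrays of KD2 (8.80, 9.06 and 9.30) and of KD1 (8.61, 8.93 and 9.10). The differences were 0.70 ± 0.06 and 0.89 ± 0.07 (limma adjusted p = 3.41e-14 and 1.89e-15). The other NDUFS7 probe set, below noise, gave 0.10 and -0.089. NDUFV1 was higher in KD3 as well, by 0.61 ± 0.05 against KD2. The accessory subunits NDUFA2, NDUFB4 and NDUFB10 were lower in KD3 against KD2, by a difference of -0.74, -0.51 and -0.50. The other NDUFA2 probe sets, below noise, gave 0.25 and -0.11 there, so the direction of NDUFA2 rests on 1 probe set. NDUFB10 was at 11.49, 11.61 and 11.74 in KD3 and 12.21, 12.48 and 12.64 in KD1, a difference of -0.86 ± 0.05 (adjusted p = 7.23e-19), and its second probe set above noise gave -0.96. NDUFB5 was higher in KD3 than in KD1 by 0.67. In KD1 against KD2, NDUFB11, NDUFV2 and NDUFC1 were higher, by 0.48, 0.43 and 0.40, and NDUFA5 and NDUFB5 lower, by -0.43 and -0.41. For NDUFC1 the other probe set, below noise, gave -0.039.

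Of the 8 NDUFAF assembly genes, 5 were higher and 1 lower in KD3 against KD2, where 31.8% of all genes were called higher. NDUFAF5 rose by 0.52 ± 0.05 (limma adjusted p = 1.88e-13), although it was close to the noise limit. NDUFAF7 was lower in KD1 than in KD2 by a difference of -0.40 and higher in KD3 than in KD1 by 0.65. These genes work on complex I before it is complete and are not part of the finished enzyme.

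In complex III the core proteins UQCRC1 and UQCRC2, which face the matrix side by side, were ordered differently over the batches. UQCRC1 was at 11.63, 11.78 and 11.97 in KD1, 11.32, 11.35 and 11.61 in KD3 and 10.70, 10.89 and 11.09 in KD2, so that no batch overlapped another. It was higher in KD1 than in KD2 by 0.90 ± 0.04 (limma adjusted p = 5.21e-21) and higher in KD3 than in KD2 by 0.50 ± 0.05. UQCRC2 was at 10.76, 10.90 and 11.14 in KD1, 11.05, 11.25 and 11.44 in KD2 and 11.51, 11.64 and 11.80 in KD3. It was lower in KD1 than in KD2 by a difference of -0.38 ± 0.05 (adjusted p = 1.05e-08) and higher in KD3 than in KD1 by 0.75 ± 0.06 (adjusted p = 2.19e-14), and its second probe set above noise gave -0.57 and 0.99.

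In complex II, SDHA, the flavoprotein, and SDHC were lower in KD3 than in KD2, by a difference of -0.31 ± 0.05 and -0.37 ± 0.06 (limma adjusted p = 2.95e-07 and 9.49e-07). SDHD differed by -0.05 ± 0.10 with a limma adjusted p of 0.756, KD2 including the AKT1 siRNA array at 9.51. None of the 3 was called in KD1 against KD2, where SDHD was at -0.18 ± 0.09 (limma adjusted p = 0.117). Without the AKT1 siRNA array SDHD was called lower in KD1, at -0.24 ± 0.05 (adjusted p = 0.00037), and at -0.11 ± 0.06 in KD3 against KD2 (adjusted p = 0.164).

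ATP synthase held the largest single rise. ATP5F1D, the delta subunit of the rotating stalk, was at 10.10, 10.28 and 10.47 in KD1, 9.56, 9.64 and 9.67 in KD3 and 9.07, 9.28 and 9.42 in KD2, with no overlap between any batches. It was higher in KD1 than in KD2 by 1.04 ± 0.05 (limma adjusted p = 1.76e-22), and its other probe set, below noise, gave 1.03. Against KD1 it was lower in KD3, at -0.66 ± 0.06 (adjusted p = 5.30e-13). The 3 genes that encode the identical mature c subunit of the membrane ring were not parallel. ATP5MC2 was higher in KD3 than in KD2 by 0.48 ± 0.04 (adjusted p = 6.70e-13), ATP5MC3 was lower at -0.22 ± 0.03 (adjusted p = 8.92e-07), and ATP5MC1 was at -0.10 ± 0.04 with an adjusted p of 0.0551. Over the 17 genes above noise, 3 were higher and 9 lower in KD3 against KD2, where 41.2% of all genes were called lower.

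**Figure D5:**
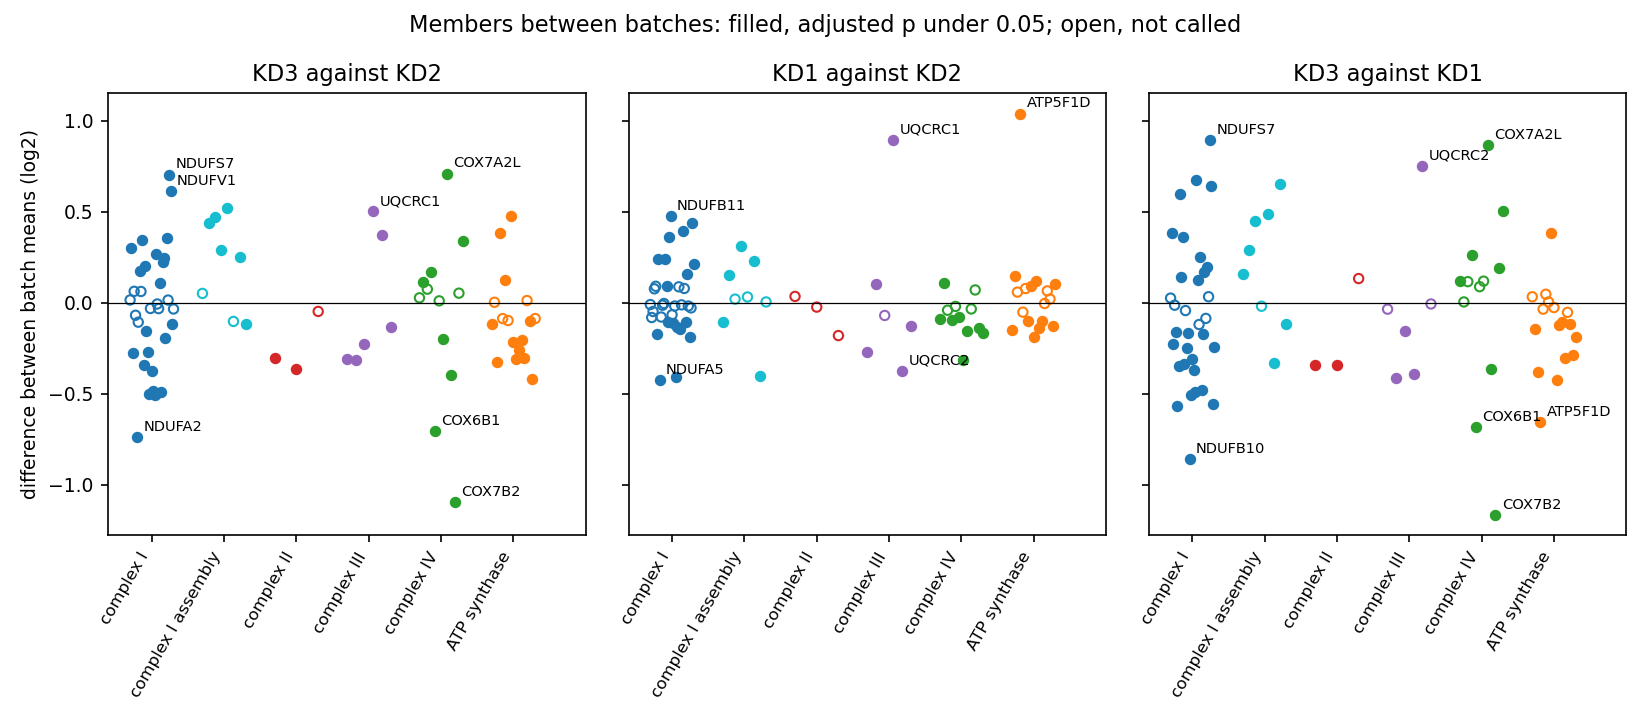
Each point is the log2 difference between batch means of 1 of 79 members above noise, by complex, in the 3 comparisons of batches, filled where the limma adjusted p was under 0.05 and open otherwise. COX7B2 (-1.09, with 6 of 7 arrays of KD3 under the noise limit) and COX7A2L (0.71) mark the ends of complex IV in KD3 against KD2, and ATP5F1D (1.04) stands above all in KD1 against KD2.

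Of 17 members with a second probe set above noise, 24 further probe sets could be set beside the one used. Where both were called, their directions were the same in 16 of 16 cases in KD3 against KD2, in 8 of 9 in KD1 against KD2 and in 16 of 17 in KD3 against KD1. The rest of the 24, where not both were called, are outside these counts. Directions differed in some of them, such as ATP5PO in KD3 against KD2 and ATP5IF1 in KD1 against KD2.

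Other mitochondrial genes gave a background for these values. Of the 72 mitochondrial ribosomal protein genes above noise, 35 were higher and 19 lower in KD3 against KD2, from MRPS10 at 1.27 to MRPL51 at -0.47, where 31.8% of all genes were called higher and 41.2% lower. The counts were 33 and 11 in KD1 against KD2 (33.2% and 33.8% of all genes) and 26 and 28 in KD3 against KD1 (34.7% and 42.0%). Of 14 genes of pyruvate dehydrogenase and the tricarboxylic acid cycle, 8 were higher and 1 lower in KD3 against KD2, led by IDH3A, a subunit of isocitrate dehydrogenase, at 0.66. In KD1 against KD2, 4 were higher, led by citrate synthase (CS) at 0.90, and 6 lower, led by SUCLG2 at -0.68. In KD3 against KD1, 9 were higher and 3 lower. Among 27 assembly factors of complexes II to V, 12 were higher and 10 lower in KD3 against KD2, with COX10, of haem synthesis for complex IV, at 0.61 and PET100 at -0.89. In KD3 against KD1, COA5 was at 0.98 and the copper chaperone SCO2 at -1.17. Of 7 mitochondrially encoded subunits named on the array, 2 were higher and 4 lower in KD3 against KD2, with COX2 at 0.21 and ND6 at -2.14. Of 7 regulators of mitochondrial biogenesis above noise, TFB1M, which methylates mitochondrial ribosomal RNA, was at 0.95 and the coactivator PPRC1 at -0.87 in the same comparison, with 2 called higher and 3 lower. Of the electron carriers, CYC1, the cytochrome of complex III, was higher in KD1 than in KD2 by 0.41 and CYCS, cytochrome c, higher in KD3 than in KD2 by 0.14. Of 6 carriers and porins, VDAC1 was at 0.16 and VDAC3 at -0.34 in KD3 against KD2, and of 2 further complex I assembly genes above noise TMEM126B was at 0.25.

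The comparison of control siRNA with untreated cells, 3 arrays each, asked whether transfection itself moved the members. None of the 79 was called, and over all genes above noise 0.0% were (limma). At an unadjusted p under 0.05 the count was 0 of 79 members, 2 of 4800 genes above noise and 97 of 54675 probe sets. With the array number as a block it was 0 of 79, 60 of 4800 and 1643 of 54675. Without the block, the SE of a member's difference ran from 0.108 to 0.430 on the log2 scale. This comparison thus had little power, and the count of 0 does not show that the members did not differ. Their median difference was -0.01, with 37 higher and 42 lower in control siRNA. In the fit without the block NDUFAF6 had the smallest p, with 9.36, 9.11 and 9.08 in control siRNA and 8.30, 8.99 and 9.16 in untreated cells. These overlapping groups differed by 0.36 ± 0.24 (limma adjusted p = 0.9999). NDUFB7 was at 10.49, 10.32 and 10.37 against 10.18, 10.24 and 10.26, groups that did not overlap, a difference of 0.17 ± 0.11. NDUFAF8 followed at 0.19 ± 0.14. With the block, the smallest p was that of NDUFAF3, at -0.25 ± 0.13 (limma adjusted p = 0.874), and NDUFAF6 was at 0.36 ± 0.21. Without both arrays numbered 3, the near copies, none was called either.

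How far the members moved together within batches was described by Spearman's rho between all pairs over the 39 siRNA arrays, which share every array. Of 3081 pairs, 126 (4.09%) had an absolute rho of 0.5 or more, against 2.23% of pairs of all genes above noise, and the median rho was 0.16 against 0.04. This share was not stable to the choice of probe set, since with the median over all probe sets of a gene it was 1.49% against 1.71%. With the NDUFAF genes counted as complex I, the median rho was 0.14 over 1040 pairs within a complex and 0.17 over 2041 pairs of different complexes. Pairs of a complex I subunit with a NDUFAF gene are thus among the former, so these medians do not compare finished complexes alone. With the NDUFAF genes kept apart and complex II not taken singly, the median rho was highest within complex IV, at 0.29 over 66 pairs. It was 0.15 within complex I, 0.17 within complex III, 0.19 within ATP synthase and 0.25 among the 8 NDUFAF genes. COX6B1 had the highest median rho to the other members, at 0.32, and NDUFA5 the lowest at -0.10. The mitochondrial ribosomal protein genes gave a similar share, 3.83%.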

How the data were processed

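The authors deposited RMA intensities, linear in scale, for 45 arrays (RMA version not given in the sources used here), and log2 of these was used without renormalising. The platform annotation gave 41097 of 54675 probe sets 1 gene, 1801 several and 11777 none. For each gene the probe set highest on average over all arrays was used. For 8 members above noise its name ends in _x_at and for a further 38 in _s_at, both kinds that can bind several transcripts. Groups follow the sample labels, batches the study's list of targets. Groups were compared with limma 3.58.1 (R 4.3.3) over all probe sets, and all other values came from Python 3.11.15, numpy 2.4.6, pandas 2.3.3 and scipy 1.17.1. The fits were tested on simulated data, with larger changes added for control siRNA against untreated than for the batches. The batch comparisons detected most of their changes. Control siRNA against untreated detected none at the smaller of its sizes and most only at the larger. Since no source says that arrays of a group came from separate experiments, p-values measure only the spread between these arrays, whose number limits the precision.

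Members and lists were chosen with earlier results of these data known. Named genes were the 12 largest single-array differences, the 5 largest rises and falls called in each comparison of batches, complex II, c subunit and isoform genes, the largest calls of each list and the 3 smallest p-values in control siRNA against untreated. Further genes named in the AKT1, FOXM1, RB1, SP1 and MAP2K1 siRNA arrays were picked with their values in view. NDUFAF3 was named for the smallest p in control siRNA against untreated with the block. The labels number the control siRNA and untreated arrays alike, and same-numbered arrays deviated together from their group means (r of 0.580, 0.671 and 0.890), which was read as pairing. However, the arrays numbered 3 are near copies and deviations within a group cancel out. Both favour a positive r in every pair, so these values are not independent evidence of pairing. Alternatives varied the reference, probe set, noise filter, scaling, variance model, block and arrays used.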

Additional observations from a re-analysis of the deposited data

Results flagged for a closer look

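Among the named members in KD1 and KD3 and the medians over members there, 52 groups of arrays were examined for a single array far from the others, and 6 were found. Chance flags about 1 in 20 groups that were not chosen by their values. These members were named for large single-array or batch differences in the same arrays, so 6 of 52 cannot be set against that rate. In the RB1 siRNA array of KD1, NDUFV1 was at 10.39 (other arrays 10.73 to 11.03), SDHC at 10.99 (11.21 to 11.42) and NDUFB7 at 10.14 (10.38 to 10.58). COX7A2L was at 11.38 in the HSF2 siRNA array of KD1, with the other 8 arrays between 11.15 and 11.26. NDUFB11 was at 11.97 in the PCNA siRNA array of KD1, with the others between 11.69 and 11.80. UQCRC1 was at 11.61 in the MCM2 siRNA array of KD3, with the others between 11.32 and 11.41. Batch KD2, with 23 arrays, was too large for this test.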

How the results depend on the processing

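The number of member values past 1.5-fold in single arrays (2) rose to 65 against the median of all 39 arrays, to 53 with mean control siRNA as reference and to 4 with the median over all probe sets of a gene, and was 2 with the array left out of its batch median, with all members, with centred arrays and with quantile normalisation, the last added after seeing the data. The median of all 39 arrays and mean control siRNA are the same for every batch, so both keep the batch differences in the values. The cause of the rise to 4 was not tested. NDUFA7 in the FOXM1 siRNA array was at -0.30, no longer past 1.5-fold, over all its probe sets. COX7B2 in the MCM2 siRNA array turned to -0.72 against all 39 arrays and to -0.38 against control siRNA. The counts of members called between batches stayed within 1.5 times under all alternatives run, from 51 to 62 in KD3 against KD2, 45 to 52 in KD1 against KD2 and 55 to 64 in KD3 against KD1, including fits without the FOXM1 and PIK3CB arrays and, added after seeing the data, without the AKT1 array, in which SDHD and NDUFA12 gained a call in KD1 against KD2 and NDUFA5 lost one in KD3 against KD2. The spread of SDHD without that array was added after seeing the data too. Of 210 values of the 30 named batch differences under alternatives, 209 kept direction and call, and NDUFC1 in KD1 against KD2 reversed to -0.039 with its most variable probe set. In control siRNA against untreated the count of members called was 0 in all fits, and leaving out single arrays gave 0 to 0. Pairing the arrays by the replicate block also gave 0 and changed no call. The share of pairs with an absolute rho of 0.5 or more (4.09%) moved to 21.9% without batch centring and 8.18% in KD2 alone. With the median over all probe sets it was 1.49%. Pairs of all genes above noise had a lower share than the members in KD2 alone. Their share was higher than that of the members without batch centring and with the median over all probe sets. The rise to 21.9% was thus not particular to the members.

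Most members lay well above the noise limit, but NDUFAF5, NDUFAF6 and COX7B2 fell under it in some arrays, where signal over background limits precision. Of all 85 members, 36 had a single probe set, so their values could not be checked on a second one.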

Other observations

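Members that separated the batches also differed between arrays within the control siRNA and untreated groups, whose batch is not given and was not inferred. ATP5F1D was at 10.53, 9.40 and 9.84 in control siRNA arrays 1, 2 and 3 and at 10.21, 9.24 and 9.88 in untreated arrays 1, 2 and 3. UQCRC1 was at 11.96, 10.98 and 11.35 in the former and at 11.82, 10.99 and 11.38 in the latter. COX7B2 was at 9.31, 9.39 and 8.25 in control siRNA and at 9.65, 9.15 and 8.26 in untreated cells. The arrays numbered 3 are the near copies.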
